A study of Mus musculus with 10 samples.

Results

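The genes described here are 8 markers of formative pluripotency in mouse embryonic stem (ES) cells, *Fgf5*, *Otx2*, *Pou3f1*, *Lef1*, *Sall2*, *Zic5*, *Grhl2* and *Foxd3*. They were taken by name, and every non-control array probe whose listed RefSeq transcript belongs to one of them was kept. This gave 10 probes, 2 each for *Lef1* and *Grhl2* and 1 for each of the other genes, among 27656 probes with a symbol that represented 20972 genes.

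Naive ES cells resemble the pluripotent cells of the embryo before implantation. When they leave this state they pass through a formative phase, in which the naive transcription factors are turned down and a new set of genes prepares the cells for signals that direct them to the germ layers. *Otx2*, a homeodomain factor, and *Pou3f1* (Oct6), a POU factor, are drivers of this transition and redirect *Pou5f1* (Oct4) to new enhancers. *Fgf5*, a secreted fibroblast growth factor, is its best known marker. *Foxd3* and *Grhl2* open enhancers in these cells, and *Grhl2* also maintains epithelial genes. *Lef1* carries Wnt signals to their target genes together with beta-catenin, while *Sall2* and *Zic5* encode zinc finger transcription factors. ES cells grown in serum with Lif, a cytokine that holds back differentiation, are a mixture in which some of these genes are already expressed.

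All cells were E14 mouse ES cells (129/Ola background), grown on gelatin in serum with 1000 U/ml Lif. One group received a pool of gRNA plasmids against the *Hottip* promoter with a plasmid for dCas9-VP160, a nuclease-dead Cas9 fused to an activation domain (4 arrays), and a second received gRNAs against the *Hoxa13* promoter with the same activator (3 arrays). *Hottip* is a long noncoding RNA transcribed away from *Hoxa13* at one end of the Hoxa cluster. The control (3 arrays) received non-targeting gRNAs and is described by the authors as carrying dCas9 alone, without VP160. By that description it lacks the activation domain as well as the targeting gRNAs. The gRNA plasmids also encode mCherry and puromycin resistance, and puromycin (2 μg/ml) was applied to every group for 24 hrs before RNA was taken at 48 hrs after transfection. The labels call the arrays biological replicates. The comparisons ask whether activation at either promoter was accompanied by a change in genes of the formative phase.

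The variable 20 bases of gRNAs from both pools are shown because they set which promoter the activator was directed to, with the 12 bases nearest the PAM, the part that matters most for binding, in capitals.
Hottip gRNA 1: gcagtaagAAGGTAAACTCG
Hottip gRNA 2: tctcctgaCTTTAGCGGTCC
Hottip gRNA 3: tacccaggACCGCTAAAGTC
Hottip gRNA 4: ggatcaggGAAGGTTTTATT
Hottip gRNA 5: gggatcagGGAAGGTTTTAT
Hoxa13 gRNA 2: catacgccGGGGGCGGGCCG
Hoxa13 gRNA 4: cgggccggGGGCGGGCCAAT
Hoxa13 gRNA 5: cgggccaaTGGGCGGCCGCC

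RefSeq promoter windows of GRCm38.p6, which run from 250 bases before to 50 bases after a transcription start, held 32851 windows, of which 13 belonged to 6 of the 8 genes (*Pou3f1* and *Grhl2* had none in the table). Each *Hottip* gRNA matched over its whole length, with an NGG PAM beside it on either strand, in a window of *Hottip* and of no other gene, and each *Hoxa13* gRNA shown in a window of *Hoxa13* and of no other gene. The 12 capital bases followed by NGG were found in 0 of the 13 windows of the formative genes for every gRNA shown. Among all windows, that of the target gene included, they were found in 18 for *Hoxa13* gRNA 2 and in 3 for *Hoxa13* gRNA 4. For each other gRNA shown they were found in 1. This search covers those letters in those windows alone.

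Levels are log2 intensities relative to the 75th percentile of each array, so that a level of 0 equals that percentile. A probe is called well above background where the scanner software marked it so. The share of probes well above background was 31.9% to 41.4% per array, and the 75th percentile of the intensity ranged from 586 to 2572. The spike-in slope, a measure of dynamic range, was 1.16 on the first array labelled *Hoxa13* gRNAs and 0.900 to 0.982 on the others. All *Hottip* gRNA and control arrays were on slide 2 with the third array labelled *Hoxa13* gRNAs, while the other 2 arrays of that group were on slide 1. Row 1 of slide 2 held *Hottip* gRNA replicates 1 and 2, control replicate 3 and the third array labelled *Hoxa13* gRNAs. Row 2 held *Hottip* gRNA replicates 3 and 4 and control replicates 1 and 2. The scanner software corrected 8 of 10 arrays for a trend across the array, but not *Hottip* gRNA replicates 3 and 4. The array held no probe matched to *Hottip*, and the check of the treatment rests on *Hoxa13*. Its brighter probe had levels of 3.17 to 4.16 on the *Hottip* gRNA arrays and −5.84 to −3.46 in the control. On the arrays labelled *Hoxa13* gRNAs it had levels of −4.80 to −3.68 and was well above background on 0 of 3, which goes against the label. Since *Hottip* was not measured, the label of the *Hottip* gRNA arrays could not be checked either. Whether the labels of the 2 gRNA groups were exchanged was not tested. Every direction given below for either gRNA group carries this limit. The pluripotent state was seen on all arrays, with 6 of 6 markers (*Pou5f1*, *Sox2*, *Nanog*, *Sall4*, *Utf1* and *Lin28a*) well above background on each of them. Their summed linear level was 81.5 to 120 over 3 complete *Hottip* gRNA arrays and 80.2 to 97.1 over 2 complete control arrays. It was 164 to 243 on the arrays labelled *Hoxa13* gRNAs. There 4 of the 6 were higher than in the control and 0 were called, from −0.94 for *Sall4* (adjusted p = 0.456 from limma) to 1.74 for *Nanog* (adjusted p = 0.340). At an unadjusted p under 0.05 in limma there were 3 of the 6, 2 higher and 1 lower, beside 11.0% of all probes. *Pou5f1* averaged 6.11 on these arrays against 4.93 for the control (adjusted p = 0.452 from limma).

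The formative genes were expressed in all groups. *Otx2*, *Pou3f1*, *Zic5*, *Foxd3* and the brighter *Grhl2* probe were well above background on 10 of 10 arrays, *Sall2* and the brighter *Lef1* probe on 9, and *Fgf5* on 8. All 8 genes passed the filter for testing, which kept probes well above background on 3 or more of the 10 arrays. Of 100 values, 2 were left out as outlier spots (*Zic5* on *Hottip* gRNA replicate 1 and *Pou3f1* on control replicate 3), and no value was saturated. Levels of different genes were read from different probes and are not ranked against each other.

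**Figure D1:**
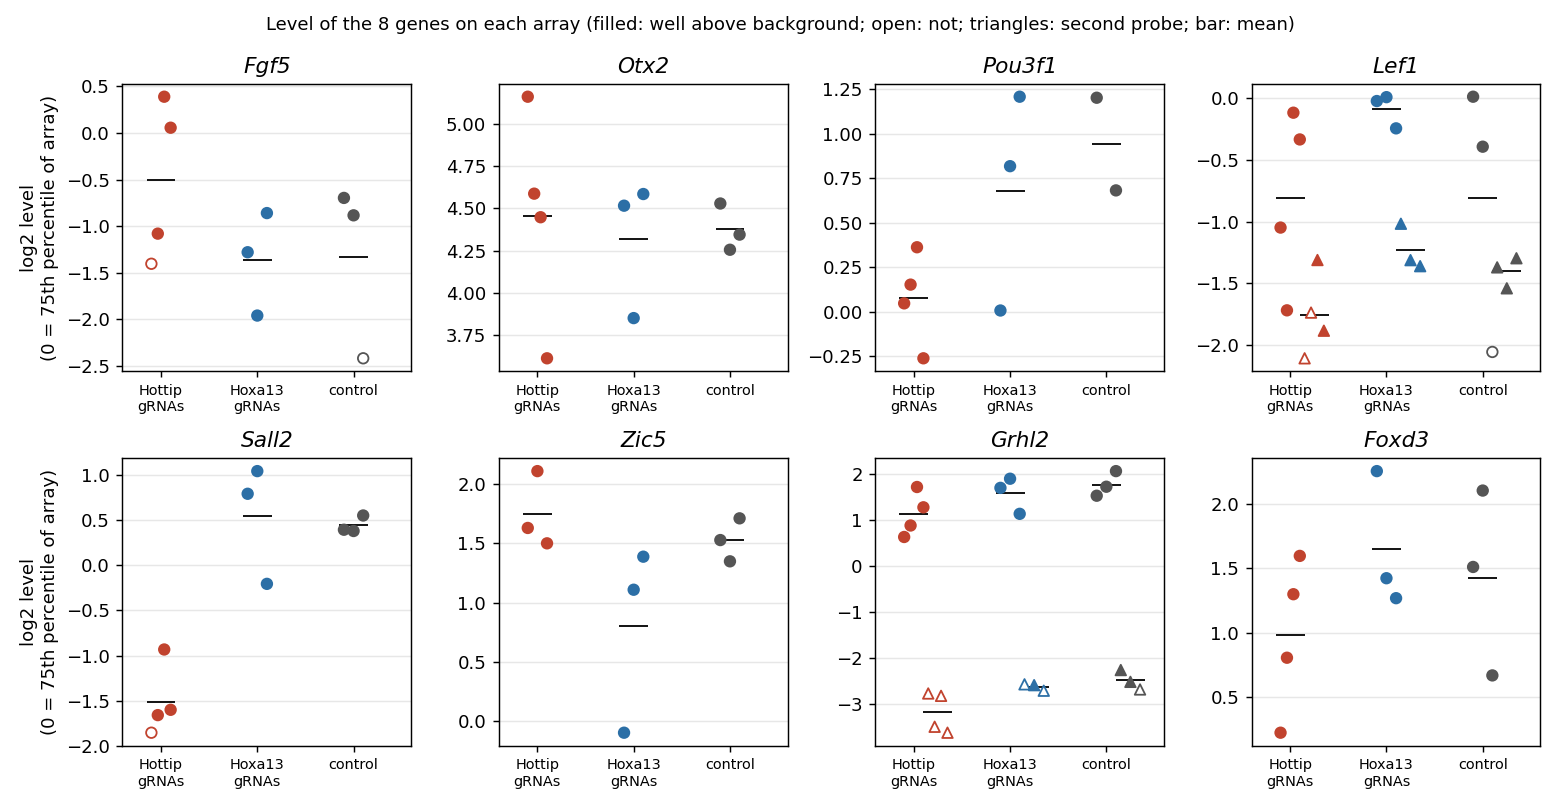
Log2 level of each gene on every array (y axis, 0 is the 75th percentile of the array) for the 3 groups (x axis), with circles for the brightest probe, triangles for a second probe, open symbols where the probe was not well above background and bars for group means. The 4 *Sall2* levels after *Hottip* gRNAs lie between −1.86 and −0.93, below all control levels, while the groups overlap for *Fgf5*, *Otx2*, *Lef1*, *Zic5* and *Foxd3* in the comparison of *Hottip* gRNAs with the control.

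Relative to the control, 0 of the 8 genes were called after *Hottip* gRNAs at an adjusted p under 0.05 in limma, where 0.718% of 22835 probes were called (97 higher and 67 lower). At an unadjusted p under 0.05 there was 1 gene of 8, *Sall2*, beside 8.05% of all probes. The groups did not overlap for *Sall2* and *Pou3f1*, 2 of 8 genes, beside 13.7% of all probes. The means were higher after *Hottip* gRNAs for 4 genes and lower for 4, with a median difference of −0.22 beside −0.03 for all probes tested.

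For the arrays labelled *Hoxa13* gRNAs, 0 of 8 genes were called against the control, where 0.175% of probes were called (14 higher and 26 lower). No gene had an unadjusted p under 0.05, beside 11.0% of probes, and none had groups that did not overlap, beside 23.9%. The differences ran from −0.73 for *Zic5* to 0.73 for *Lef1*, and their median was −0.05 beside 0.19 for all probes tested. Between the 2 gRNA pools, 0 of 8 genes were called, beside 0.381% of 22830 probes. *Sall2* alone had an unadjusted p under 0.05, beside 11.9%, and the groups did not overlap for 2 of 8 genes, *Sall2* and *Zic5*, beside 17.7%. The comparisons share arrays, so that a gene's values in them are not independent.

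**Figure D2:**
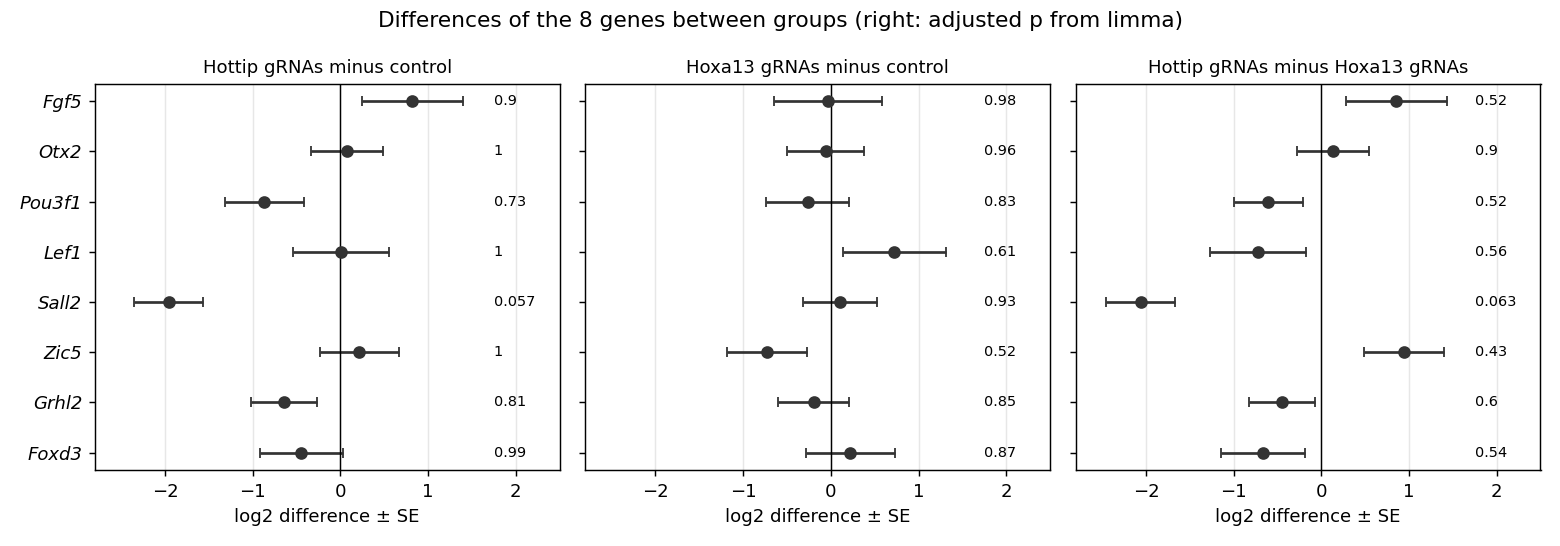
Log2 difference of each gene with its standard error (x axis) in the 3 comparisons, with the adjusted p from limma at the right of each panel. *Sall2* lies at −1.96 in the comparison of *Hottip* gRNAs with the control and at −2.06 in that of the gRNA pools, and no gene has an adjusted p under 0.05.

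*Sall2* is the gene with the largest difference among the 8. Its levels (probe A_51_P137094) were −1.86, −1.66, −0.93 and −1.60 on *Hottip* gRNA replicates 1 to 4, and 0.40, 0.38 and 0.55 on control replicates 1 to 3. All *Hottip* gRNA arrays lay below all control arrays, and the lowest of them, replicate 1, was not well above background. On the arrays labelled *Hoxa13* gRNAs the levels were 0.80, 1.05 and −0.20, which overlap the control on both sides.

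*Sall2* averaged −1.51 ± 0.40 (SD, n = 4) on the *Hottip* gRNA arrays, against 0.44 ± 0.10 (SD, n = 3) for the control. This log2 difference of −1.96 (SE 0.40) is a 3.89-fold lower intensity, and limma gave an unadjusted p of 0.000451 and an adjusted p of 0.0566, which misses the threshold. The two-sided exact permutation test gave p = 0.0286, the smallest that 4 arrays against 3 allow. Among the lower probes ranked by p, *Sall2* stood at place 77, past the 67 that were called. Against the arrays labelled *Hoxa13* gRNAs the difference was −2.06 (SE 0.40, adjusted p = 0.0627 from limma, exact permutation p = 0.0286). Those arrays differed from the control by 0.10 (SE 0.42, adjusted p = 0.934 from limma).

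The call of *Sall2* against the control did not stay on one side of the threshold. Over 27 alternative settings that tested it, the difference between *Hottip* gRNAs and the control ran from −2.20 to −1.70 and the adjusted p from 0.0178 to 0.411, and *Sall2* was called under 9 of them. With the slide as a block the adjusted p was 0.0221, and without *Hottip* gRNA replicates 3 and 4, the arrays that were not detrended, the difference was −2.20 with an adjusted p of 0.184. In the authors' own log2 values the *Hottip* gRNA arrays ranged from 8.81 to 9.64 and the control arrays from 10.97 to 11.58, again with no overlap. The median signal of the spots around the probe was 0.20 higher on the *Hottip* gRNA arrays, and with that local median subtracted the *Sall2* difference was −2.16. The part of the position on the array in the difference was not tested. Against the arrays labelled *Hoxa13* gRNAs the difference ran from −2.44 to −1.31 over the alternatives. The smallest was that within slide 2, −1.31 (adjusted p = 0.543 from limma with the slide as a block), where that group is 1 array.

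**Figure D3:**
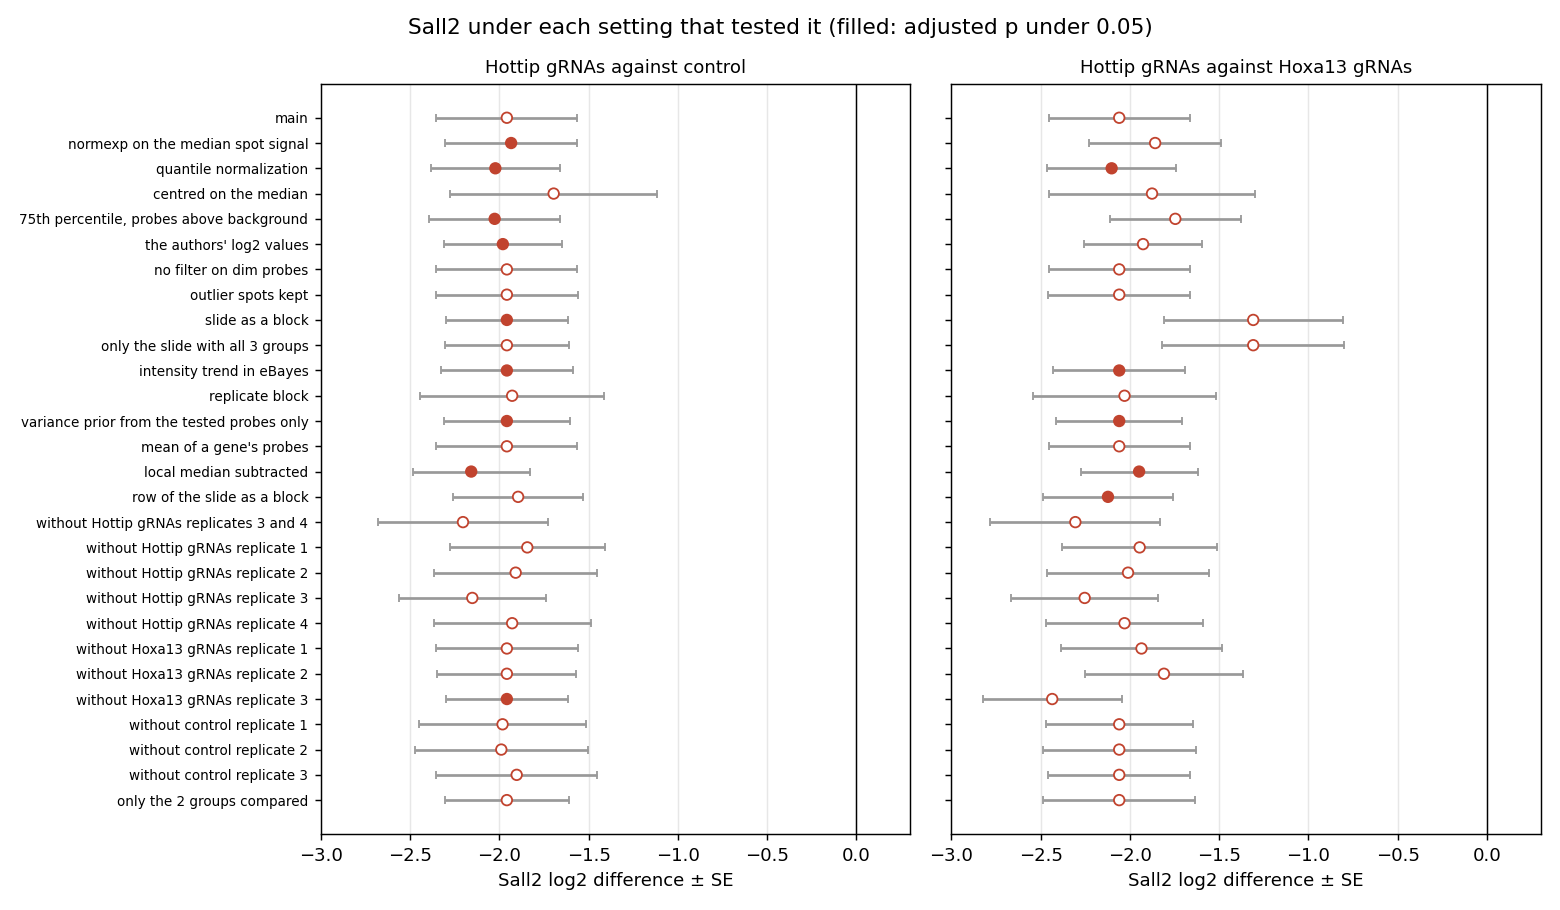
*Sall2* log2 difference with its standard error (x axis) under each setting that tested it (y axis), for *Hottip* gRNAs against the control and against the arrays labelled *Hoxa13* gRNAs, with filled points where the adjusted p was under 0.05. Every point is below 0 in both panels, and the values with filled points do not stand apart in size from the others.

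The annotation gives *Sall2* a pair of promoter windows on the minus strand of chromosome 14. The 250 bases before each start are shown since this gene carried the largest difference, with CpG dinucleotides in capitals. The upstream start has 0 CpGs in these bases and the downstream one has 6.
Sall2, upstream start, chr14:52328671-52328920, minus strand: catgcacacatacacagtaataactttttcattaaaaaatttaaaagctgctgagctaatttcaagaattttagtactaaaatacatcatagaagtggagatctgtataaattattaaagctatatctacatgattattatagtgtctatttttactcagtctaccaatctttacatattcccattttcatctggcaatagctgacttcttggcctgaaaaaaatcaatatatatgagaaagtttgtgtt
Sall2, downstream start, chr14:52316324-52316573, minus strand: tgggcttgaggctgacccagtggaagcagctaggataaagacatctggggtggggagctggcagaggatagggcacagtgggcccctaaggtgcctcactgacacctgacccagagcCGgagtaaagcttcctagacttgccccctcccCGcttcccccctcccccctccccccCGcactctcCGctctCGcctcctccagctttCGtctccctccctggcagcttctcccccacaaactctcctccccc

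The whole windows of 300 bases held 1 and 10 CpGs, beside 5 to 29 in the windows of the other 5 formative genes in the table and a median of 7 over all windows. The core motif of Otx2, TAATCC on either strand, was found in 1 of the 13 windows, one of *Otx2* itself, and in 7.06% of all windows. The octamer read by POU factors, ATGCAAAT on either strand, was found in 0 of 13 and in 1.74% of all windows. No promoter state was measured in these samples, and the single *Sall2* probe does not separate the starts.

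*Sall2* belongs to a family of spalt-like zinc finger factors, of which *Sall4* holds ES cells in the pluripotent state. *Sall4* averaged 2.77 ± 0.15 (SD, n = 4) on the *Hottip* gRNA arrays, against 3.10 ± 0.10 (SD, n = 3) for the control, a difference of −0.33 (adjusted p = 0.997 from limma). *Sall1* differed by 0.11 (adjusted p = 0.999) and *Sall3*, well above background on 5 of 10 arrays, by −1.31 (adjusted p = 0.550). None of these relatives was called.

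Among markers of other cell types, calls after *Hottip* gRNAs were made in the trophoblast list, for 2 of 4 genes tested, beside 0.718% of all probes. At an unadjusted p under 0.05 in limma there were 4 of the 4, beside 8.05% of all probes. *Gata3*, a trophoblast regulator, was higher by 2.72 (adjusted p = 0.00649 from limma). *Cdx2*, a trophoblast and posterior regulator, was measured above background on 4 of 4 of these arrays and on 0 of 3 control arrays, an at least 14.3-fold higher signal (adjusted p = 0.00105 from limma). It was well above background on 5 arrays in all and passed the filter only through the group where it is high. Its call and its part in the counts of this list are therefore a description. The summed linear level of the 5 trophoblast markers, in units of the 75th percentile, was 13.0 to 27.1 over 3 complete *Hottip* gRNA arrays, 2.62 to 4.90 in the control and 7.06 to 10.0 over 2 complete arrays labelled *Hoxa13* gRNAs, while *Elf5* was well above background on no array. Most of this sum came from *Krt8*, a keratin gene, and *Tfap2c*, an AP-2 factor, whose mean levels on the *Hottip* gRNA arrays were 3.01 and 2.73 and which were not called (adjusted p = 0.392 and 0.115 from limma). The summed level of 5 endoderm markers was 4.35 to 8.02 after *Hottip* gRNAs and 2.04 to 2.88 in the control. Of 4 tested, 0 were called in limma and 1 had an unadjusted p under 0.05, beside 8.05% of all probes. That gene, *Gata6*, an endoderm regulator, carried most of the sum, with a mean level of 2.43 against 0.77 (adjusted p = 0.0925), while *Pdgfra* differed by −0.18 (adjusted p = 0.999). The summed level of 5 mesoderm markers was 1.45 to 2.11 after *Hottip* gRNAs and 0.819 to 0.969 in the control. Of these *Eomes* was tested (0.88, adjusted p = 0.553), *T* and *Gsc* were well above background on 1 of 10 arrays each, and *Mixl1* and *Mesp1* on none. The summed level of 4 neural precursor markers was 1.29 to 7.76 after *Hottip* gRNAs and 2.24 to 13.6 in the control, which overlap. Of 2 tested, 0 were called in limma and 1, *Sox1*, had an unadjusted p under 0.05 (−1.76, adjusted p = 0.120). The groups did not overlap for *Sox1*, beside 13.7% of all probes, and overlapped for the other gene tested. *Nes* and *Neurog2* were well above background on no array. The part of these cell types in the *Sall2* difference was not tested, and in bulk RNA fewer cells of a type cannot be told apart from less RNA per cell.

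*Pou3f1* was the other gene whose *Hottip* gRNA and control arrays did not overlap. Its levels were 0.05, 0.15, 0.36 and −0.26 on *Hottip* gRNA replicates 1 to 4 and 1.20 and 0.68 on control replicates 1 and 2. The arrays labelled *Hoxa13* gRNAs gave 0.01, 0.82 and 1.21 and overlapped both other groups. The difference between *Hottip* gRNAs and the control was −0.87 (SE 0.45, adjusted p = 0.733 from limma). With control replicate 3 left out as an outlier spot, the exact permutation test reached p = 0.0667, the smallest possible for 4 arrays against 2. When outlier spots were kept the difference was −1.10 (adjusted p = 0.465), and with the local median subtracted it was −1.59 (adjusted p = 0.210). The authors' log2 values, which include control replicate 3, ended at 11.07 for *Hottip* gRNAs and began at 11.08 for the control.

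*Grhl2* was represented by 2 probes. The brighter one gave 0.63, 0.87, 1.71 and 1.27 after *Hottip* gRNAs, 1.69, 1.89 and 1.13 on the arrays labelled *Hoxa13* gRNAs and 1.52, 1.72 and 2.06 in the control. The highest *Hottip* gRNA array overlapped the control, and the difference was −0.64 (SE 0.38, adjusted p = 0.807 from limma). The dimmer probe (A_51_P408821) exceeded background clearly on 0 of 4 *Hottip* gRNA arrays, 1 of 3 arrays labelled *Hoxa13* gRNAs and 2 of 3 control arrays. For it the difference between *Hottip* gRNAs and the control was −0.69 (SE 0.35, adjusted p = 0.706 from limma). No *Hottip* gRNA value of this probe was well above background, so the size of the difference is uncertain. This probe passed the filter only through the other groups, where its means are higher. Its difference is therefore a description and does not support that of the brighter probe. Neither difference was called.

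Epithelial genes that Grhl2 is known to activate were well above background on all arrays, 7 of 7. After *Hottip* gRNAs 0 of 7 were called against the control, and their differences ran from −0.15 for *Cdh1* (E-cadherin), with levels of 2.78 ± 0.19 (SD, n = 4) and 2.94 ± 0.19 (SD, n = 3), to 0.56 for *Ovol2*, an epithelial repressor of mesenchymal genes. On the arrays labelled *Hoxa13* gRNAs they ran from −1.20 for *Cldn6* to 1.05 for *Epcam*, also with 0 called. At an unadjusted p under 0.05 there were 0 and 3 of the 7 in these comparisons, beside 8.05% and 11.0% of all probes.

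*Foxd3* levels were 0.23, 0.81, 1.30 and 1.60 after *Hottip* gRNAs, 2.25, 1.42 and 1.27 on the arrays labelled *Hoxa13* gRNAs and 1.51, 2.10 and 0.67 in the control. All 3 groups overlapped. The differences from the control were −0.44 (SE 0.48, adjusted p = 0.986 from limma) and 0.22 (SE 0.51, adjusted p = 0.872).

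*Fgf5*, the marker by which the formative phase is most often followed, was well above background on 8 of 10 arrays. Its probe exceeded background clearly on 3 of 4 *Hottip* gRNA arrays, 3 of 3 arrays labelled *Hoxa13* gRNAs and 2 of 3 control arrays. Its levels were −1.40, −1.08, 0.39 and 0.06 after *Hottip* gRNAs, −1.28, −1.96 and −0.86 on the arrays labelled *Hoxa13* gRNAs and −0.70, −0.88 and −2.42 in the control. The highest values were those of *Hottip* gRNA replicates 3 and 4, the arrays without detrending, and the other 2 lay within the control range. Replicates 3 and 4 shared row 2 of slide 2 with control replicates 1 and 2, the higher controls. On slide 1 the array in row 2 was the lower (−1.96 against −1.28). Which of row and detrending went with the level was not tested. The difference from the control was 0.82 (SE 0.58, adjusted p = 0.896 from limma) for *Hottip* gRNAs and −0.03 (SE 0.62, adjusted p = 0.985) for the arrays labelled *Hoxa13* gRNAs, and the former ranged from 0.09 to 1.14 over the alternatives.

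*Otx2* differed between groups by less than the spread of its replicates. The values were 5.16, 4.59, 4.45 and 3.61 after *Hottip* gRNAs, 4.52, 3.85 and 4.59 on the arrays labelled *Hoxa13* gRNAs and 4.53, 4.26 and 4.35 in the control. The control arrays fell inside the range of the *Hottip* gRNA arrays. The differences from the control were 0.08 (SE 0.41, adjusted p = 0.999 from limma) and −0.06 (SE 0.44, adjusted p = 0.961), and with quantile normalization the former was −0.26. In the authors' log2 values the *Hottip* gRNA arrays (14.27 to 14.88) lay above the control arrays (13.85 to 14.13). These values differ from those above in the spot signal used as well as in the scaling, and which of them moved the overlap was not tested.

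*Lef1* was also read by 2 probes. The brighter one gave −1.05, −1.72, −0.12 and −0.33 after *Hottip* gRNAs, −0.02, 0.01 and −0.24 on the arrays labelled *Hoxa13* gRNAs and 0.01, −0.39 and −2.05 in the control, where the last value was not well above background. This array alone widened the control spread to an SD of 1.10. It was the only control array in row 1 of slide 2, the row of *Hottip* gRNA replicates 1 and 2, the lower ones of their group. The third array labelled *Hoxa13* gRNAs, also in that row, gave −0.24. The part of the row in these values was not tested. The difference was 0.01 (SE 0.55, adjusted p = 0.999 from limma) for *Hottip* gRNAs, and −0.61 without control replicate 3. For the arrays labelled *Hoxa13* gRNAs it was 0.73 (SE 0.58, adjusted p = 0.606), and 0.10 without that array. On the other probe the differences were −0.36 (adjusted p = 0.966) and 0.17 (adjusted p = 0.848), so the probes did not have the same sign for *Hottip* gRNAs.

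Of 7 Wnt target genes read through Lef1 and its relatives, 4 were tested. After *Hottip* gRNAs 1 of the 4 was called against the control, beside 0.718% of all probes. At an unadjusted p under 0.05 in limma there were 3 of the 4, beside 8.05% of all probes. *Cdx1*, a caudal homeobox gene, averaged 1.89 ± 0.63 (SD, n = 4) on the *Hottip* gRNA arrays, against −1.58 ± 0.56 (SD, n = 3) for the control, a difference of 3.46 (SE 0.43, adjusted p = 0.00393 from limma). Against the arrays labelled *Hoxa13* gRNAs it was 2.79 (adjusted p = 0.0235). The other genes tested after *Hottip* gRNAs were *Sp5* (1.46, adjusted p = 0.156), *Notum* (1.40, adjusted p = 0.243) and *Nkd1* (−0.20, adjusted p = 0.999), and the median of the 4 was 1.43 beside −0.03 for all probes tested. On the arrays labelled *Hoxa13* gRNAs 0 of the 4 were called against the control, and 1 had an unadjusted p under 0.05, beside 11.0% of all probes. The median of the 4 was 0.58 there beside 0.19 for all probes tested, from −0.33 for *Nkd1* to 1.74 for *Notum* (adjusted p = 0.266 from limma). *Axin2* was well above background on 1 of 10 arrays and was not tested.

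*Zic5* levels were 1.63, 2.11 and 1.50 on *Hottip* gRNA replicates 2 to 4, −0.09, 1.11 and 1.39 on the arrays labelled *Hoxa13* gRNAs and 1.53, 1.35 and 1.71 in the control. The lowest value was that of the first array labelled *Hoxa13* gRNAs, whose spike-in slope was the highest, and the part of that slope in the value was not tested. The difference from the control was 0.22 (SE 0.45, adjusted p = 0.999 from limma) after *Hottip* gRNAs and −0.73 (SE 0.45, adjusted p = 0.522) for the arrays labelled *Hoxa13* gRNAs. Between the gRNA pools it was 0.95 (SE 0.45, adjusted p = 0.432) without overlap (exact permutation p = 0.1, the smallest that 3 arrays against 3 allow). In the authors' log2 values these groups overlapped.

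Genes outside the 8 that mark or drive the same transition were described from lists. Of 13 other formative or primed epiblast genes, 13 were tested and 0 were called after *Hottip* gRNAs, with a median difference of −0.02. The largest difference was that of *Dnmt3a*, a de novo DNA methyltransferase (2.43, SE 0.84, adjusted p = 0.409 from limma), whose control arrays had an SD of 1.76, and the smallest that of the kinase gene *Pim2* (−0.87, SE 0.36, adjusted p = 0.553). On the arrays labelled *Hoxa13* gRNAs 0 of 13 were called, with a median of 0.49 beside 0.19 for all probes tested. At an unadjusted p under 0.05 there were 3 and 1 of the 13, beside 8.05% and 11.0% of all probes.

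Of 12 genes of the naive state, 0 were called after *Hottip* gRNAs, with differences from −0.41 for *Klf5* to 0.96 for *Tbx3*. Their median was 0.27 beside −0.03 for all probes tested. On the arrays labelled *Hoxa13* gRNAs 0 of 12 were called, from −0.26 for *Dppa3* to 1.90 for *Tbx3*. The median there was 0.59 beside 0.19 for all probes tested. Of 10 regulators of the exit from the naive state, 0 were called in either comparison. After *Hottip* gRNAs they ran from −0.79 for *Foxp1* to 0.62 for *Fgfr2*, a receptor for fibroblast growth factors. At an unadjusted p under 0.05 there were 0 naive genes and 0 of these regulators after *Hottip* gRNAs, beside 8.05% of all probes. On the arrays labelled *Hoxa13* gRNAs there were 3 and 1, beside 11.0% of all probes.

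Of 19 paralogues of the 8 genes, 12 were tested and 0 were called after either gRNA pool, while 5, *Otx1*, *Pou3f2*, *Foxd1*, *Foxd2* and *Fgf6*, were well above background on no array. At an unadjusted p under 0.05 there were 4 and 3 of the 12, beside 8.05% and 11.0% of all probes. The largest difference after *Hottip* gRNAs was that of *Zic1* (1.33, adjusted p = 0.400 from limma) and the smallest that of *Sall3*, given above. *Zic2* differed by 1.11 (adjusted p = 0.514).

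**Figure D4:**
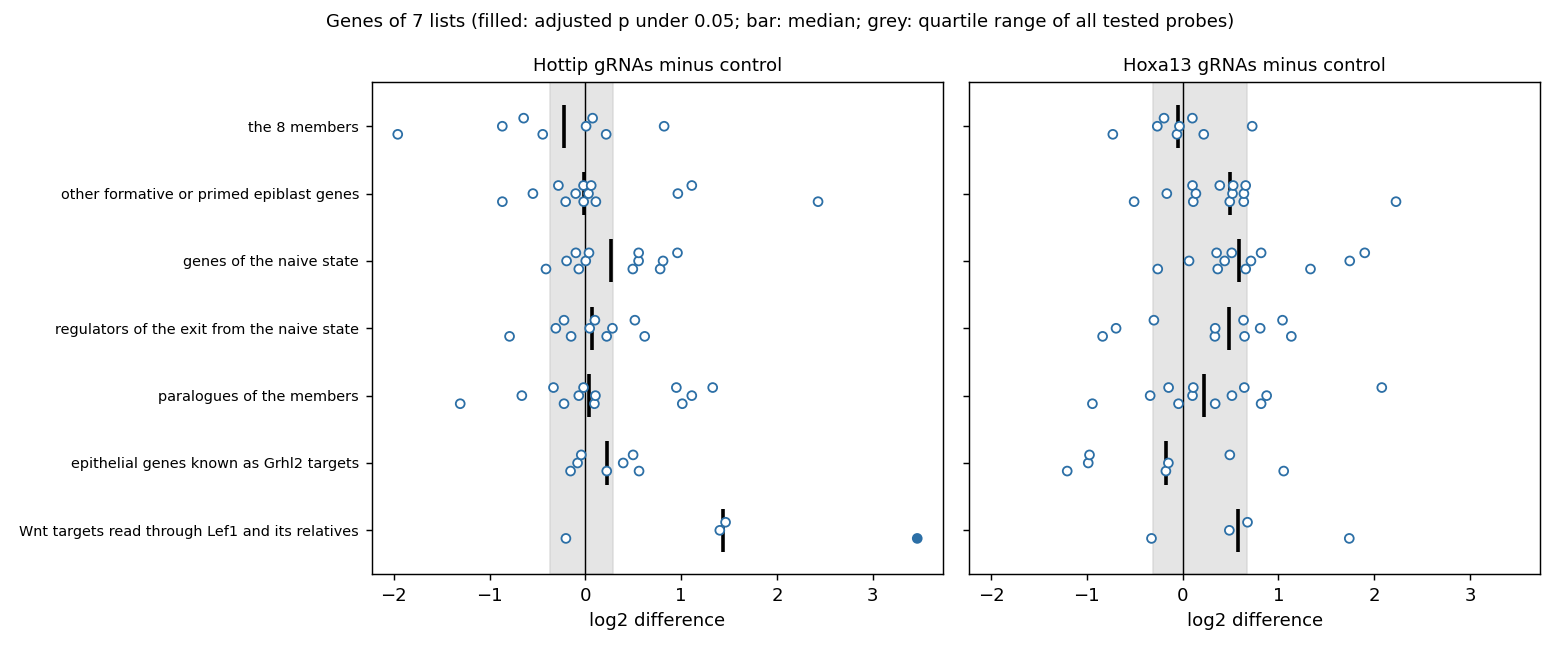
Log2 difference from the control (x axis) of every tested gene in the 8 formative genes and 6 lists of related genes (y axis) for *Hottip* gRNAs and for the arrays labelled *Hoxa13* gRNAs, with filled points at an adjusted p under 0.05, black bars for medians and grey for the range between the lower and upper quartiles of all probes tested. *Cdx1* at 3.46 is the one filled point.

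The genes whose levels ran most like those of a formative gene were read from 6383 probes well above background on all arrays. These correlations are a description over arrays that share slides and groups. For *Otx2* they were *Dll3* (Pearson r = 0.904), a Notch ligand, *Ccndbp1* (0.898) and *Cryzl1* (0.882) over 10 arrays. For *Pou3f1* they were *Usp44* (0.938), *Rhpn2* (0.933) and *Plxnb1* (0.931) over 9 arrays, and for *Zic5*, *Ighmbp2* (0.968), *Igsf21* (0.964) and *Tmem167b* (0.962) over 9 arrays. *Grhl2* ran most like *Rbbp9* (0.923), *1500011B03Rik* (0.917) and *Ate1* (0.911), and *Foxd3* like *Ifrd2* (0.966), *Rnf115* (0.966) and *Rpl17* (0.963), both over 10 arrays. No gene appears for more than one member.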

How the data were processed

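Spot intensities deposited by the authors were read out with Feature Extraction 11.5.1.1 and are background-subtracted in its processed signal. The authors also deposited log2 values, whose making is not given in the sources used here. They rank spots as the median signal minus local background and were used as an alternative. The submitters' processing notes name limma.

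Control and outlier spots were left out, processed signals were put on a log2 scale relative to the array's 75th percentile (over all non-control spots) and spots of a probe averaged. Probes were named through RefSeq genes of GRCm38.p6. A gene's value is that of its brightest probe. Groups were fitted with limma 3.58.1 (lmFit, eBayes) in R 4.3.3 on all 10 arrays, with Benjamini-Hochberg adjustment over 22844 probes well above background on at least 3 arrays, of which up to 22835 could be fitted in a comparison. Calls were made at 0.05. Single genes were tested by exact permutation (scipy 1.17.1). Named were the 8 genes, the called genes or extremes of each list, and the 3 genes most correlated with each gene measured on all arrays. Other genes were chosen after their values were seen. The members and lists were chosen with earlier results of these data known. Some gRNA sequences and a gene of a list are not reported here. The procedure was tested on simulated data. The number of arrays limits the precision. The alternatives were other background corrections, scalings, filters, blocks and variance models, and each array left out in turn. Neural crest and fibroblast markers were checked as well, with 0 of 1 and 0 of 4 tested genes called after *Hottip* gRNAs.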

Additional observations from a re-analysis of the deposited data

How the results depend on the processing

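No formative gene was called among the 8 in any comparison, and the alternatives changed this for *Sall2* alone. For *Hottip* gRNAs against the control, 1 gene (*Sall2*) was called with normexp, quantile normalization, the 75th percentile of probes above background, the authors' log2 values, the slide as a block, an intensity trend, a variance prior from the tested probes or the local median subtracted (the last 2 chosen after seeing the data). Leaving out each array in turn gave 0 to 1, with 1 without the third array labelled *Hoxa13* gRNAs (adjusted p = 0.0402). Between the gRNA pools 1 gene (*Sall2*) was called with quantile normalization, the trend, that prior, the local median or with slide rows blocked (chosen after seeing the data), and 0 with each array left out. A filter on all 10 arrays left *Sall2* untested. For the arrays labelled *Hoxa13* gRNAs 0 genes were called under all 28 alternatives. The cause of these shifts was not tested.

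Of 663 alternative values of the 24 differences, 50 had the opposite sign, all in 9 differences whose main size was at most 0.26. For *Hottip* gRNAs against the control, *Otx2* was −0.26 with quantile normalization and −0.016 with the row block, and *Lef1* was −0.061 with the percentile of probes above background, −0.15 with the replicate block, −0.17 with the mean of its probes and −0.57 without *Hottip* gRNA replicates 3 and 4. With each array left out, *Otx2* ran from −0.16 to 0.36 and *Lef1* from −0.61 to 0.42. For the arrays labelled *Hoxa13* gRNAs against the control, *Fgf5* was 0.11 with quantile normalization, 0.045 centred on the median, 0.47 with the slide as a block or slide 2 alone, 0.11 with the local median and 0.25 with the row block. *Otx2* was 0.38 with normexp, 0.019 centred on the median, 0.10 in the authors' values, 0.21 with the slide as a block or slide 2 alone and 0.31 with the local median. *Pou3f1* was 0.27 with either use of the slide, *Grhl2* 0.091 with the local median, and *Sall2* −0.076 with normexp, −0.28 with the percentile of probes above background, −0.054 in the authors' values, −0.65 with either use of the slide and −0.21 with the local median. *Foxd3* was −0.16 with that percentile, −0.16 with either use of the slide and −0.045 with the local median. With each array left out these ran from −0.58 to 0.28 (*Fgf5*), −0.19 to 0.17 (*Otx2*), −0.53 to 0.071 (*Pou3f1*), −0.15 to 0.48 (*Sall2*), −0.35 to 0.027 (*Grhl2*) and −0.16 to 0.56 (*Foxd3*). Between the pools *Otx2* was −0.13 with either use of the slide and −0.10 to 0.41 with each array left out. The scalings moved the median of all probes by up to 0.25 (*Hottip* gRNAs against the control), −0.40 (the arrays labelled *Hoxa13* gRNAs against the control) and 0.31 (between pools).

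Deviations of same-numbered arrays from their group means had correlations of −0.31 to 0.14, and the main fit pairs no arrays. These deviations also hold differences of slide and row, so they cannot decide whether same-numbered arrays were handled together. With the replicate block *Sall2* differed by −1.93 (adjusted p = 0.364) after *Hottip* gRNAs, 0 of 8 genes were called in each comparison, and 13, 2 and 8 probes were called in place of 164, 40 and 87. Over all alternatives the probes called ran from 5 to 414, 0 to 130 and 0 to 143, with 5, 0 and 0 under the filter on all arrays, 414 with the slide as a block and 130 without control replicate 3.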
